A study of Mus musculus with 9 samples.

Results

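Brain endothelial and pericyte genes were followed through 9 members: Cldn5, Ocln, Cdh5, Pecam1, Flt1, Tek, Slc2a1, Pdgfrb and Rgs5. They are 9 of the 18193 genes named on the array, and all probe sets annotated to 1 of them alone were taken, 20 of the 45037 tested. A probe set is a group of short probes on the array that together give 1 value for a transcript, and the probe sets of a gene are kept apart throughout. Each gene had between 1 and 4 of them. RNA came from brain hemispheres, without the cerebellum, of naive adult male mice aged 11 ± 1 weeks, from 3 strains with 3 arrays each. All 3 are labelled as inbred: C57BL/6ByJ, BALB/cJ and B6By.C.132.54. The name of the last is that of a C57BL/6By line with DNA from BALB/c, but the labels do not say how it was made. All mice were untreated. Each array held 10 pooled hemispheres, so errors here describe pools, not single mice.

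Endothelial cells line every brain capillary and seal it with tight junctions, which forms the blood-brain barrier. Claudins and occludin build the tight junction, VE-cadherin the adherens junction beneath it, and glucose enters the brain through a dedicated endothelial transporter. Pericytes wrap the capillary wall and depend on PDGF-B released by the endothelium.

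Of the 60 strain differences measured over the 9 genes, 2 passed the test. Cldn5 was 1.45-fold lower in BALB/cJ than in C57BL/6ByJ, and 1 Rgs5 probe set was 1.47-fold lower in B6By.C.132.54 than in BALB/cJ. Between BALB/cJ and C57BL/6ByJ, 1 of the 20 probe sets passed an adjusted p of 0.05 (limma, Benjamini-Hochberg), against a background of 1.43% of all probe sets (0.921% lower, as Cldn5 was). Between B6By.C.132.54 and BALB/cJ, 1 of 20 passed, against 1.28% (0.564% lower, as Rgs5 was). Between B6By.C.132.54 and C57BL/6ByJ, 0 of 20 passed (limma), as did 0% of all probe sets. At an unadjusted p under 0.05, BALB/cJ against C57BL/6ByJ held 2 member probe sets, Cldn5 and Rgs5 1417466_at, where the background was 7.58% of all probe sets. B6By.C.132.54 against BALB/cJ held 5, which were Cldn5 and all 4 of Rgs5, where it was 7.5%. B6By.C.132.54 against C57BL/6ByJ held 1, Rgs5 1417466_at, where it was 3.89%. The 4 Rgs5 probe sets read 1 gene and are not separate cases. The median log2 difference over the 20 probe sets was -0.01 in BALB/cJ against C57BL/6ByJ, beside 0.02 over all probe sets. It was 0.01 in B6By.C.132.54 against BALB/cJ, beside -0.02, and -0.03 in B6By.C.132.54 against C57BL/6ByJ, beside -0.01. The 3 comparisons share arrays, so their values are not independent of one another. In whole-hemisphere RNA, fewer vascular cells and less RNA per vascular cell cannot be told apart. Probe sequences were not at hand, so whether strain variants under the probes alter these values was not tested. Cldn5 has only 1 probe set, so no other probe set of that gene can be set beside it.

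**Figure D1:**
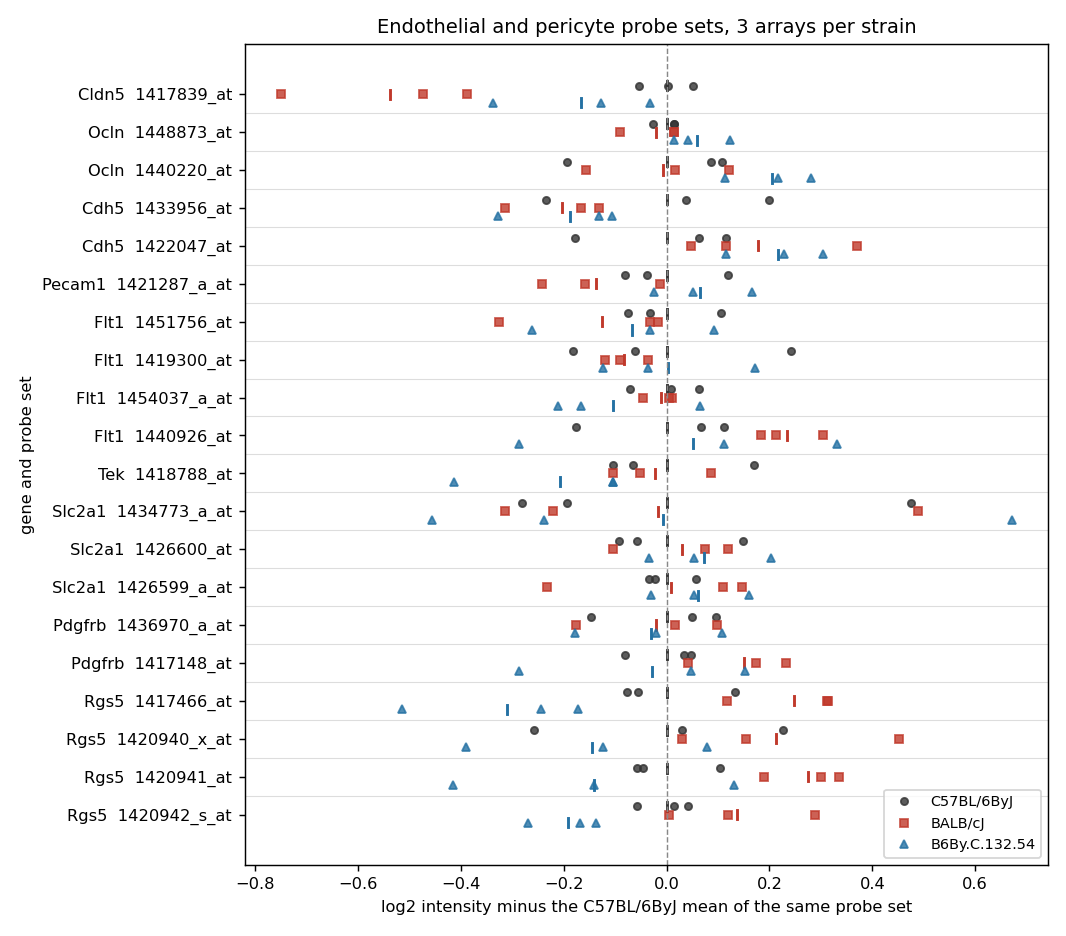
Log2 intensity of each array minus the C57BL/6ByJ mean of the same probe set (x axis), for the 20 probe sets (y axis); points are arrays, coloured by strain, and short vertical bars are means of 3 arrays. Most rows mix the strains, while the BALB/cJ arrays of Cldn5 stand to the left, and the B6By.C.132.54 arrays of Rgs5 1417466_at lie left of both other strains.

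The arrays themselves were close to each other. Their median intensity lay between 15.49 and 16.01 on the linear scale. One array stood apart: the interquartile range of log2 values was 2.73 on B6By.C.132.54 replicate 3, against 2.84 to 2.98 elsewhere, and its mean correlation with the arrays of its strain was 0.988. Values that recur exactly between arrays are common in the deposited table, and 9 of the 20 member probe sets held at least 1 such repeat. The means of 2 member probe sets, Cdh5 1422047_at and Flt1 1440926_at, were under 3.97 on the log2 scale, the median over all probe sets. Detection calls were not used here, so such dim values may not be above background.

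Cldn5 encodes claudin-5, the main claudin of brain endothelium, which closes the barrier to small molecules. Its 1 probe set, 1417839_at (chromosome 16), read 7.52, 7.62 and 7.57 log2 intensity in C57BL/6ByJ replicates 1 to 3. In BALB/cJ it read 6.82, 7.10 and 7.18, and in B6By.C.132.54 7.23, 7.54 and 7.44. All BALB/cJ arrays lay below all arrays of both other strains, while B6By.C.132.54 overlapped C57BL/6ByJ. Because Cldn5 is 1 of the 2 members with a called difference, the 250 bases before its transcription start are shown here beside those of Rgs5, the other called member. The bases are the RefSeq reference sequence of build GRCm38.p6, written in the direction of transcription, and not the sequence of any strain studied. Capitals mark the CCAAT box, CCAAT or its reverse complement ATTGG.
Cldn5, chr16:18776597-18776846, plus strand: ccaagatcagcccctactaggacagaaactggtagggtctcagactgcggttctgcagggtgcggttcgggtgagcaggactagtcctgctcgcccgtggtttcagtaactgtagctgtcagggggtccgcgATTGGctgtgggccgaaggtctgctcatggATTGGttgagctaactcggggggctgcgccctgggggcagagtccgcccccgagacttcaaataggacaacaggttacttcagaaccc
Rgs5, chr1:169655251-169655500, plus strand: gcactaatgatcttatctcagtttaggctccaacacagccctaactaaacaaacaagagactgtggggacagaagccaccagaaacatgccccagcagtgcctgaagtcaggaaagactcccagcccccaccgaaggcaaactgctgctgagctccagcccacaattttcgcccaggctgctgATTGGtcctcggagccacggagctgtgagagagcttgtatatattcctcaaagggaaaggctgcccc

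Cldn5 held 2 CCAAT boxes, starting 118 and 88 bases before the start site, and Rgs5 held 1, starting 67 bases before it. Among all 32851 RefSeq promoter stretches of that length, 33.8% held at least 1 CCAAT box on either strand. The ETS core GGAA, searched as GGAA and TTCC, occurred 0 times in the Cldn5 stretch and 3 times in that of Rgs5; 93.4% of all stretches held it. ETS factors are known regulators of endothelial genes. The GC box GGGCGG or CCGCCC occurred once in Cldn5 and not in Rgs5 (32.7% of all stretches). The TATA box was searched only as the exact letters TATAAA or TTTATA, which occurred in neither (12.4%). Variants of these letters were not searched. Matches of different motifs can overlap by a few letters, as ATTGG and GGAA can. Of the 9 genes, 6 had a promoter entry. CCAAT was also found 25 bases before 1 of the 2 Ocln start sites, and in none of the stretches of Flt1, Tek and Slc2a1. These are matches of letters, not sites shown to be bound.

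The difference of Cldn5 between BALB/cJ and C57BL/6ByJ was -0.54 ± 0.114 (SE) on the log2 scale, with a 95% interval from -0.79 to -0.29 (limma adjusted p = 0.0466). BALB/cJ was lower within each replicate number, by -0.69, -0.53 and -0.39 for numbers 1, 2 and 3. Arrays were taken as pairs by replicate number from their correlations, since the labels do not link the numbers to batches. With the number as a block the adjusted p was 0.00835 (limma). The means of Cldn5 were 7.03 ± 0.189 in BALB/cJ and 7.57 ± 0.0531 in C57BL/6ByJ (SD, n = 3 each). B6By.C.132.54 lay between them at 7.41 ± 0.156 (SD, n = 3). Its arrays were all above those of BALB/cJ (difference 0.37, interval 0.12 to 0.62), but this did not pass after adjustment (limma adjusted p = 0.277, and 0.0723 with the block). Against C57BL/6ByJ it measured -0.17, with an interval from -0.42 to 0.09 (limma adjusted p = 0.915).

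The Cldn5 call in BALB/cJ stood close to the threshold. It passed in 1 of the 9 fits that each left out 1 array, where the adjusted p ran from 0.0376 without B6By.C.132.54 replicate 1 to 0.213 without C57BL/6ByJ replicate 2 (limma). It was lost without any other array: C57BL/6ByJ replicate 1 or 3 (0.125 and 0.170), BALB/cJ replicate 1, 2 or 3 (0.162, 0.13 and 0.0596) and B6By.C.132.54 replicate 2 or 3 (0.0511 and 0.0583). The difference itself stayed between -0.61 and -0.43 in all 19 alternative fits. Several of these, such as the block and those without a B6By.C.132.54 array, cannot change it.

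Markers of other brain cell types also differed in BALB/cJ. Of 31 astrocyte probe sets, 5 were called higher than in C57BL/6ByJ (16.1%, against 1.43% of all probe sets), belonging to Gfap, Kcnj10 and Slc1a2. Several of the 5 read Gfap and are not separate cases. The mean log2 level of the list was 6.97 to 7.08 against 6.84 to 6.96, but its median difference was -0.02. The brightest astrocyte gene, Aldoc, measured -0.18, and the brighter Slc1a2 probe set -0.03 against 1.80 for the called one; neither of the former passed (limma adjusted p = 0.63 and 0.988). Of 16 microglia probe sets, 2 were called lower (12.5%), those of the complement genes C1qb and C1qc, with a list mean of 5.70 to 5.81 against 5.83 to 5.92. The gene of the remaining C1q chain, C1qa, measured 0.17 and Csf1r, the receptor that microglia need to survive, 0.02, neither of which passed (limma adjusted p = 0.831 and 0.995). The astrocyte list lay at 6.57 to 6.95 and the microglia list at 5.83 to 5.88 in B6By.C.132.54. Few of these probe sets were dimmer than the array's median, 4 of the astrocyte list and 3 of the microglia list. Their part in the Cldn5 difference was not tested.

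**Figure D2:**
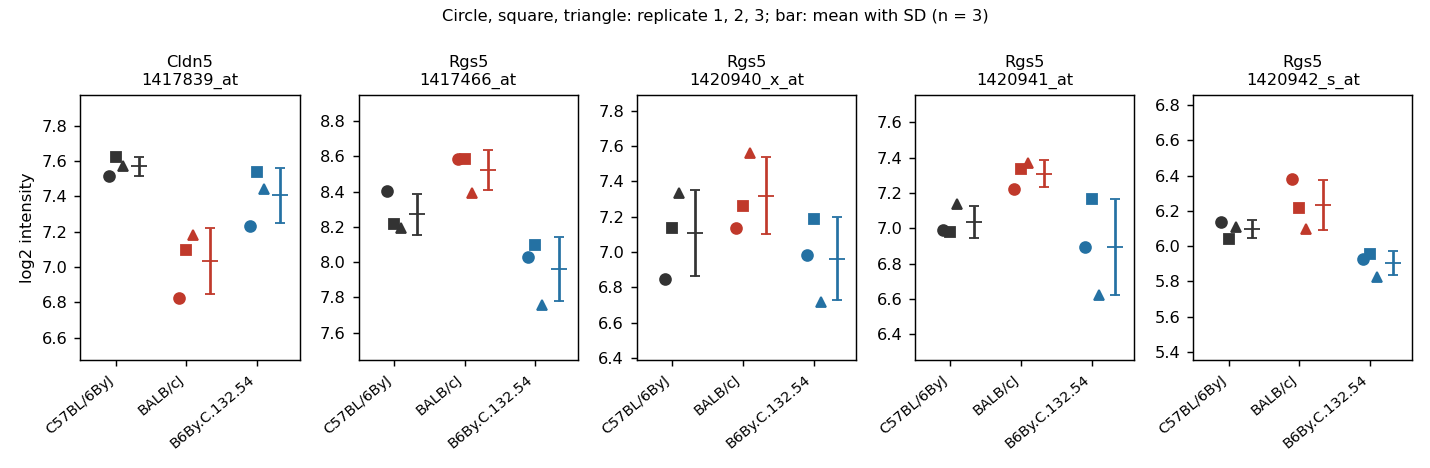
Log2 intensity (y axis) of Cldn5 and the 4 Rgs5 probe sets in each strain (x axis); circles, squares and triangles are replicates 1, 2 and 3, and bars give the mean with its SD over 3 arrays. BALB/cJ has the lowest Cldn5 mean and the highest mean of each Rgs5 probe set; each panel spans 1.5 log2 units.

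Ocln encodes occludin, the other transmembrane protein of the tight junction among the 9 members. The probe set 1448873_at (chromosome 13) read 4.94, 4.98 and 4.98 in C57BL/6ByJ, 4.87, 4.98 and 4.98 in BALB/cJ, and 5.005, 5.09 and 4.98 in B6By.C.132.54. Only 5 distinct values occurred among its 9 arrays. The probe set 1440220_at read 4.52, 4.50 and 4.22 in C57BL/6ByJ, 4.54, 4.26 and 4.43 in BALB/cJ, and 4.70, 4.63 and 4.53 in B6By.C.132.54. On the latter, all B6By.C.132.54 arrays lay above all C57BL/6ByJ arrays, by 0.20 on average (interval -0.04 to 0.45; limma adjusted p = 0.915). In BALB/cJ its differences from C57BL/6ByJ were -0.02 (interval -0.19 to 0.15) for 1448873_at and -0.01 (interval -0.25 to 0.23) for 1440220_at. Neither interval reaches the -0.54 measured for Cldn5; the difference between the genes was not tested.

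Cdh5 encodes VE-cadherin, which holds endothelial cells together at the adherens junction. Its brighter probe set, 1433956_at (chromosome 8), read 4.42, 4.69 and 4.85 in C57BL/6ByJ, 4.34, 4.52 and 4.49 in BALB/cJ, and 4.55, 4.52 and 4.32 in B6By.C.132.54. C57BL/6ByJ had the widest spread and overlapped both other strains. The differences from C57BL/6ByJ were -0.20 (interval -0.47 to 0.06) in BALB/cJ and -0.19 (interval -0.45 to 0.07) in B6By.C.132.54, and neither passed (limma adjusted p = 0.812 and 0.915). The other probe set, 1422047_at, averaged 2.83 over the 9 arrays, with differences of 0.18 and 0.22 in the opposite direction that did not pass either (limma adjusted p = 0.851 and 0.915). Over the 9 arrays the 2 probe sets of Cdh5 correlated at -0.45, so they did not rise and fall together.

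Pecam1 encodes CD31, an adhesion molecule at endothelial contacts that is also carried by platelets and leukocytes. Its 1 probe set, 1421287_a_at (chromosome 11), read 5.03, 5.23 and 5.07 in C57BL/6ByJ, 4.95, 5.10 and 4.87 in BALB/cJ, and 5.28, 5.09 and 5.16 in B6By.C.132.54. The strains overlapped. BALB/cJ measured -0.14 against C57BL/6ByJ (interval -0.35 to 0.08; limma adjusted p = 0.877). B6By.C.132.54 measured 0.20 higher than BALB/cJ (interval -0.01 to 0.42; limma adjusted p = 0.702).

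Flt1 encodes VEGF receptor 1, which binds VEGF-A tightly and, in its soluble form, keeps it from the signalling receptor. The brightest of its 4 probe sets, 1451756_at (chromosome 5), read 6.76, 6.72 and 6.90 in C57BL/6ByJ, 6.47, 6.78 and 6.76 in BALB/cJ, and 6.53, 6.89 and 6.76 in B6By.C.132.54. The probe set 1419300_at read 5.55, 5.98 and 5.68 in C57BL/6ByJ, 5.65, 5.70 and 5.62 in BALB/cJ, and 5.61, 5.91 and 5.70 in B6By.C.132.54. In both, the strains overlapped, and differences ran from -0.13 to 0.09 over the 3 comparisons. The probe set 1454037_a_at spanned 0.28 over all 9 arrays. The dim probe set 1440926_at read 3.94, 3.82 and 3.85 in BALB/cJ, above 3.70, 3.75 and 3.46 in C57BL/6ByJ, a difference of 0.23 (interval -0.08 to 0.55; limma adjusted p = 0.837). None of the 12 differences of Flt1 passed, and the lowest adjusted p was that one. Correlations among the 4 probe sets over the 9 arrays ran from -0.31 to 0.47.

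Tek encodes Tie2, the endothelial receptor for angiopoietins, which keeps vessels quiescent. Its 1 probe set, 1418788_at (chromosome 4), read 4.77, 5.01 and 4.73 in C57BL/6ByJ, 4.79, 4.92 and 4.73 in BALB/cJ, and 4.73, 4.73 and 4.43 in B6By.C.132.54. The lowest value was that of B6By.C.132.54 replicate 3, and the strains overlapped. B6By.C.132.54 measured -0.21 against C57BL/6ByJ (interval -0.46 to 0.04) and -0.18 against BALB/cJ (interval -0.43 to 0.07), neither of which passed (limma adjusted p = 0.915 and 0.808). BALB/cJ and C57BL/6ByJ differed by -0.02 (interval -0.27 to 0.23).

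**Figure D3:**
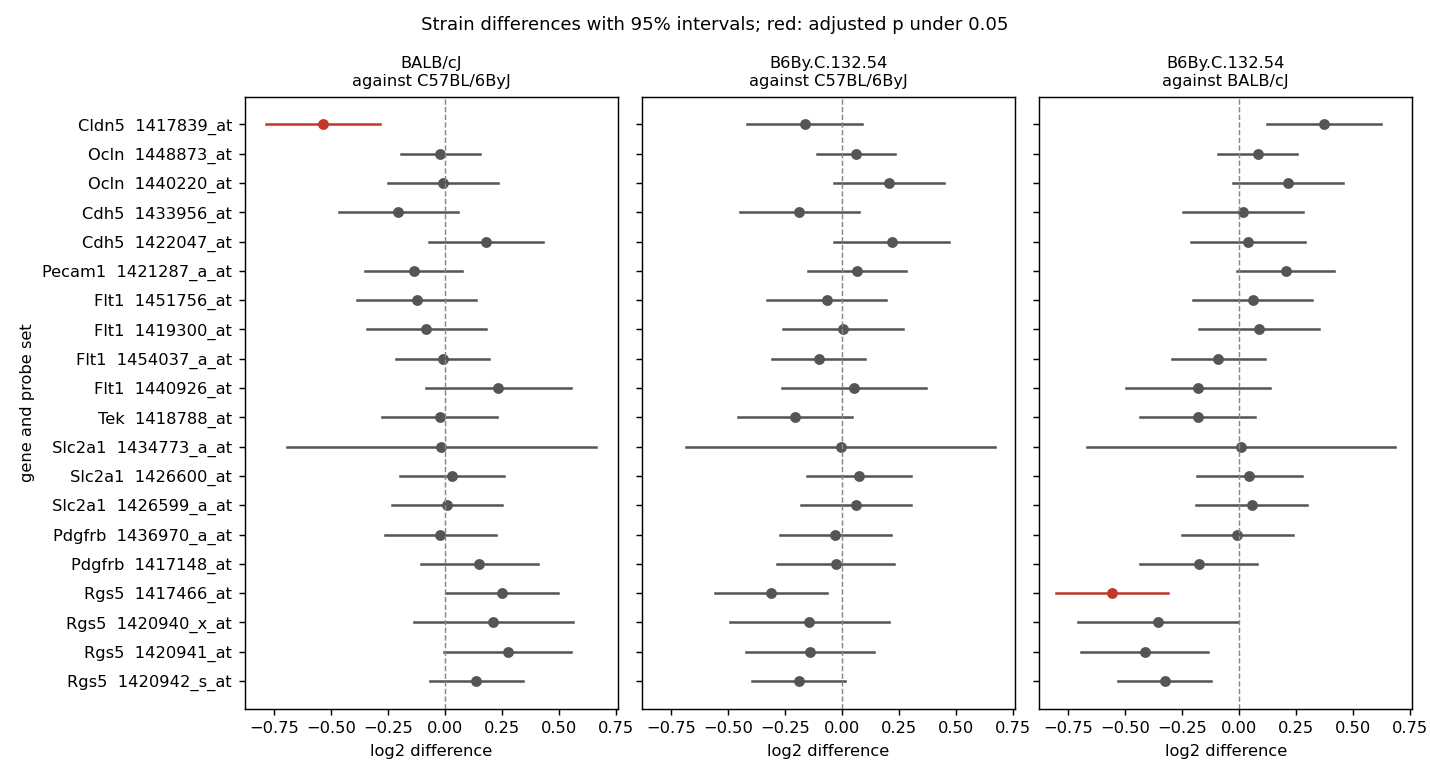
Log2 difference between strains (x axis) with its 95% interval for the 20 probe sets (y axis), 1 panel per comparison; red marks an adjusted p under 0.05. The 2 red intervals are Cldn5 in BALB/cJ against C57BL/6ByJ and Rgs5 1417466_at in B6By.C.132.54 against BALB/cJ, and Slc2a1 1434773_a_at has the widest intervals.

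Slc2a1 encodes GLUT1, the glucose transporter of the barrier endothelium, found at lower density on astrocytes. No strain difference passed: over its 3 probe sets (chromosome 4) and 3 comparisons, differences ran from -0.02 to 0.07. The probe set 1426600_at read 7.46, 7.70 and 7.49 in C57BL/6ByJ, 7.44, 7.62 and 7.67 in BALB/cJ, and 7.51, 7.75 and 7.60 in B6By.C.132.54. The probe set 1426599_a_at read 7.46, 7.38 and 7.37, then 7.51, 7.17 and 7.55, and 7.56, 7.37 and 7.45 in the same order of strains. For these 2, all intervals lay between -0.23 and 0.30. For 1434773_a_at they were much wider, from -0.69 to 0.66 for BALB/cJ against C57BL/6ByJ.

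The replicate 1 arrays stood apart on this probe set. On 1434773_a_at the 3 replicate 1 arrays read 8.24 in C57BL/6ByJ, 8.26 in BALB/cJ and 8.44 in B6By.C.132.54, while the other 6 arrays ran from 7.31 to 7.57. Replicate 1 was 1.78-fold higher than replicates 2 and 3 (log2 difference 0.83 ± 0.0848 SE; limma adjusted p = 0.00052), in a comparison chosen after the values were seen. Of the 20 member probe sets this 1 was called, as were 4.18% of all probe sets (2.8% with replicate 1 higher and 1.38% lower). The other Slc2a1 probe sets did not pass, with -0.17 for 1426600_at (limma adjusted p = 0.252) and 0.13 for 1426599_a_at (limma adjusted p = 0.444). With the replicate number as a block, the SE of the strain differences on 1434773_a_at was 0.0979 in place of 0.307, and still none passed (limma adjusted p from 0.979 to 0.987). The control probe sets for the ends of the Actb transcript, a gauge of RNA integrity and labelling, moved with the replicate number too. The 3' minus 5' log2 signal was 0.71 to 0.78 on the replicate 1 arrays and 0.51 to 0.60 on the others. For Gapdh it moved the opposite way, at -0.60 to -0.49 on the replicate 1 arrays and -0.41 to -0.27 on the others. Their part in the Slc2a1 value was not tested.

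**Figure D4:**
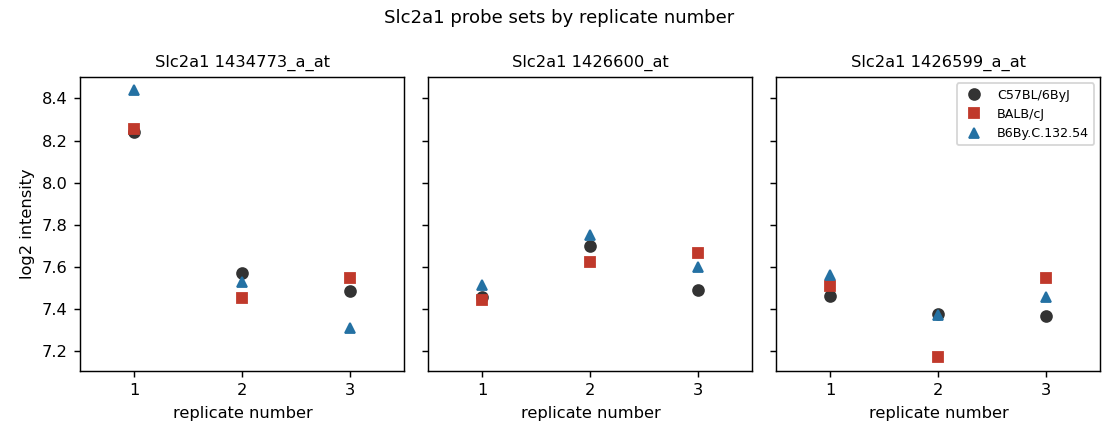
Log2 intensity (y axis) of the 3 Slc2a1 probe sets by replicate number (x axis), with 1 point per array and a marker for each strain. On 1434773_a_at the replicate 1 arrays of all 3 strains lie at 8.24 to 8.44, above the other 6 arrays, and the other probe sets show no such step.

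Pdgfrb encodes the PDGF receptor through which pericytes are recruited to vessels. Its probe set 1436970_a_at (chromosome 18) read 4.91, 4.87 and 4.67 in C57BL/6ByJ, 4.92, 4.64 and 4.83 in BALB/cJ, and 4.80, 4.92 and 4.64 in B6By.C.132.54. The probe set 1417148_at read 4.17, 4.30 and 4.29, then 4.29, 4.48 and 4.43, and 3.96, 4.40 and 4.30 in the same order. The strains overlapped on both. Differences on 1436970_a_at ran from -0.03 to -0.01. On 1417148_at BALB/cJ measured 0.15 against C57BL/6ByJ (interval -0.11 to 0.41), and B6By.C.132.54 measured -0.18 against BALB/cJ (interval -0.43 to 0.08). None passed, and the lowest adjusted p was 0.822 (limma).

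Rgs5 encodes a regulator of G protein signalling that is abundant in brain pericytes. Its brightest probe set, 1417466_at (chromosome 1), read 8.41, 8.22 and 8.19 in C57BL/6ByJ, 8.58, 8.59 and 8.39 in BALB/cJ, and 8.03, 8.10 and 7.76 in B6By.C.132.54. The B6By.C.132.54 arrays lay below all arrays of both other strains, and BALB/cJ overlapped C57BL/6ByJ by the narrow margin of 8.39 against 8.41. B6By.C.132.54 differed from BALB/cJ by -0.56 ± 0.111 (SE; interval -0.80 to -0.31; limma adjusted p = 0.0361). Within replicate numbers 1, 2 and 3 this difference was -0.56, -0.49 and -0.63, and with the number as a block the adjusted p was 0.00713 (limma).

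C57BL/6ByJ lay between the other strains on this probe set. It was 0.31 above B6By.C.132.54 and 0.25 below BALB/cJ, and both were short of the threshold (limma adjusted p = 0.915 and 0.651). The called gap between BALB/cJ and B6By.C.132.54 spans both of these smaller ones.

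The other 3 Rgs5 probe sets were designed from a common sequence record and are not independent of each other. The suffix of 1420940_x_at and 1420942_s_at marks probes that can match further transcripts. The probe set 1420941_at read 6.99, 6.98 and 7.14 in C57BL/6ByJ, 7.22, 7.34 and 7.37 in BALB/cJ, and 6.89, 7.17 and 6.62 in B6By.C.132.54. The probe set 1420940_x_at read 6.85, 7.14 and 7.33, then 7.14, 7.26 and 7.56, and 6.98, 7.19 and 6.72 in the same order. The probe set 1420942_s_at read 6.14, 6.04 and 6.11, then 6.38, 6.22 and 6.10, and 5.93, 5.96 and 5.83. In all 3, BALB/cJ had the highest mean and B6By.C.132.54 the lowest. B6By.C.132.54 was below BALB/cJ by -0.36 on 1420940_x_at, -0.42 on 1420941_at and -0.33 on 1420942_s_at, and none of these passed (limma adjusted p = 0.647, 0.272 and 0.205). The arrays of those 2 strains did not overlap on 1420941_at and 1420942_s_at. Correlations between Rgs5 probe sets over the 9 arrays ran from 0.41 to 0.94, in which all share the same libraries.

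B6By.C.132.54 replicate 3 read lowest of the 9 arrays on all 4 Rgs5 probe sets. Without it the difference from BALB/cJ on 1417466_at was -0.46 and the call was lost (limma adjusted p = 0.0978). The call passed in 2 of the 9 fits that each left out 1 array, those that dropped C57BL/6ByJ replicate 1 (0.0458) or B6By.C.132.54 replicate 2 (0.041). It was lost without C57BL/6ByJ replicate 2 or 3 (0.0681 and 0.0613), BALB/cJ replicate 1, 2 or 3 (0.15, 0.176 and 0.0568) and B6By.C.132.54 replicate 1 (0.0779; limma adjusted p for each). The difference kept between -0.63 and -0.46 in all 19 alternative fits. Several of these, such as the block and those without a C57BL/6ByJ array, cannot change it. The list of PDGF pathway and pericyte genes had a mean log2 level of 4.72 to 4.86 in C57BL/6ByJ, 4.78 to 4.80 in BALB/cJ and 4.76 to 4.84 in B6By.C.132.54. Its brightest gene was Vtn, vitronectin, whose probe set 1420484_a_at differed by 0.06 between B6By.C.132.54 and BALB/cJ (interval -0.16 to 0.28; limma adjusted p = 0.939). Its other named probe set, 1455098_a_at, measured -0.12 there (interval -0.31 to 0.07; limma adjusted p = 0.848). In that comparison the astrocyte list also held 5 called probe sets of 31, all lower in B6By.C.132.54 (16.1%, against 1.28% of all probe sets). They belonged to Gfap, Kcnj10 and Slc1a2, and those of Gfap are not separate cases. The brighter Slc1a2 probe set measured -0.09 (limma adjusted p = 0.89), and Aldoc 0.20 in the other direction (limma adjusted p = 0.565). The microglia list held 2 of 16 (12.5%), both higher, those of C1qb and C1qc. Its median difference was -0.05, with C1qa at -0.06 and Csf1r at -0.12 (limma adjusted p = 0.948 and 0.861). Their part in the Rgs5 difference was not tested.

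**Figure D5:**
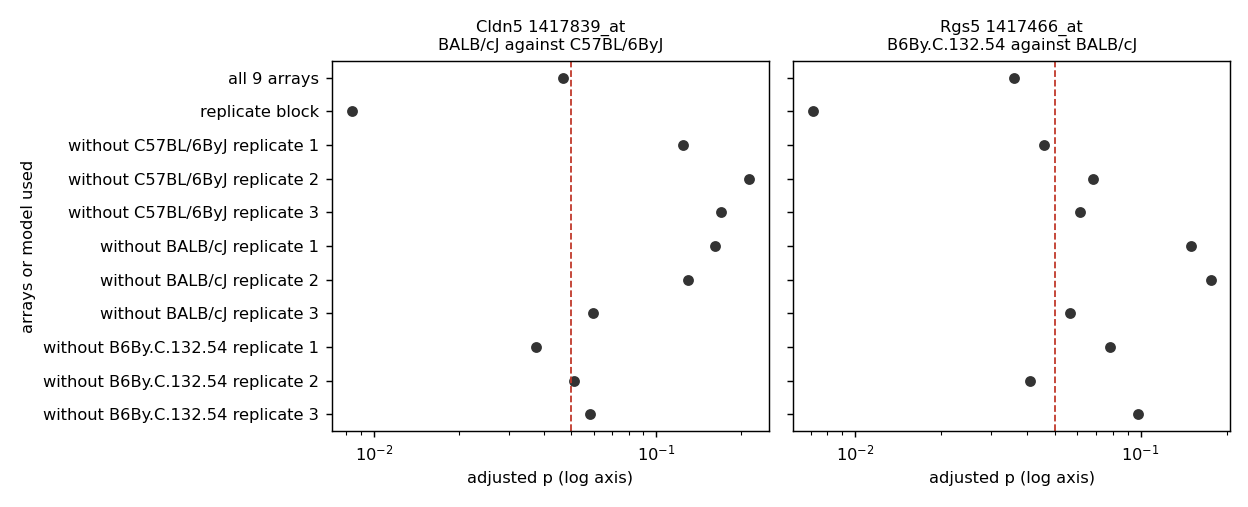
Adjusted p (x axis, log scale) of the 2 called differences with all 9 arrays, with the replicate block and with each array left out in turn (y axis); the dashed line is 0.05. The block gives the lowest adjusted p in both panels, 0.00835 for Cldn5 and 0.00713 for Rgs5, and most fits without 1 array lie to the right of the line.

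Groups of arrays that did not overlap were counted over the 20 probe sets. In BALB/cJ against C57BL/6ByJ, 2 probe sets lay wholly higher and 1 wholly lower, against backgrounds of 6.65% and 5.95% of all probe sets. In B6By.C.132.54 against C57BL/6ByJ, 1 lay higher and 2 lower, against 3.08% and 3.54%. In B6By.C.132.54 against BALB/cJ, 1 lay higher, which was Cldn5, and 3 lower, all of them Rgs5, against 3.8% and 5.72%. With several of these probe sets from 1 gene, they are not separate cases.

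Genes of the same vessels and pathways were read from 8 lists: other endothelial identity genes, junction partners, barrier transporters, the VEGF, angiopoietin and PDGF pathways with pericyte genes, smooth muscle, and Wnt and norrin signalling to brain endothelium. They held 97 measured genes with 186 probe sets. Between BALB/cJ and C57BL/6ByJ 0 were called by limma, and 13 (6.99%) had an unadjusted p under 0.05, against 7.58% of all probe sets. Between B6By.C.132.54 and C57BL/6ByJ 0 were called, and 9 (4.84%) had an unadjusted p under 0.05, against 3.89%. Between B6By.C.132.54 and BALB/cJ 1 was called, lower in B6By.C.132.54 (0.538%, against 1.28% of all probe sets), and 17 (9.14%) had an unadjusted p under 0.05, against 7.5%. The median difference over the 186 probe sets was 0.01, 0.00 and -0.02 on the log2 scale.

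By list, none of the 36 probe sets of other endothelial identity genes, which include those of Kdr and Tie1, was called in any comparison (limma), with 1 at an unadjusted p under 0.05 in each. The 22 probe sets of junction partners and the 18 of the VEGF ligands and receptors had 0 called and 0 at an unadjusted p under 0.05. Of the 26 of the PDGF and pericyte list, 0 were called, with 0, 3 and 3 at an unadjusted p under 0.05 in the order of comparisons just given. The 15 of the angiopoietin pathway and the 12 of smooth muscle had 0 called and at most 1 at an unadjusted p under 0.05. The 31 of the barrier transporters had 0 called and 4, 3 and 6 at an unadjusted p under 0.05. The 28 of the Wnt and norrin list had 7, 2 and 6, with the 1 call. Over all probe sets the shares at that level were 7.58%, 3.89% and 7.5%. In B6By.C.132.54 against BALB/cJ the transporter list had a median difference of -0.11, beside -0.02 over all probe sets. There 8 of its 31 probe sets lay wholly lower and 0 wholly higher, against 5.72% and 3.8% of all. The Wnt and norrin list had a median of 0.06 in BALB/cJ against C57BL/6ByJ, beside 0.02. The brightest junction partner was Ctnnb1, beta-catenin, which links cadherins to the cytoskeleton; 1420811_a_at differed by -0.12 in BALB/cJ from C57BL/6ByJ (interval -0.28 to 0.05; limma adjusted p = 0.85). The brightest endothelial gene was Itm2a, whose probe set 1451047_at differed by -0.07 in that comparison (interval -0.30 to 0.16; limma adjusted p = 0.971). The 2 brightest barrier transporter probe sets were those of Slc3a2, the heavy chain of amino acid transporters, and Tfrc, the transferrin receptor, which carries iron. Slc3a2 1425364_a_at measured -0.01 in BALB/cJ against C57BL/6ByJ (interval -0.24 to 0.22; limma adjusted p = 0.997). Tfrc 1452661_at measured -0.31 there (interval -0.54 to -0.07; limma adjusted p = 0.388).

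The called probe set belonged to Apcdd1, a Wnt target and inhibitor that marks Wnt-responsive brain endothelium. Its probe set 1449070_x_at read 6.00, 5.93 and 5.80 in C57BL/6ByJ, 6.46, 6.38 and 6.37 in BALB/cJ, and 5.96, 5.90 and 5.59 in B6By.C.132.54. All BALB/cJ arrays were above all others. B6By.C.132.54 was 0.59 lower than BALB/cJ on the log2 scale (difference -0.59 ± 0.107 SE; limma adjusted p = 0.0215), and BALB/cJ was 0.49 above C57BL/6ByJ (limma adjusted p = 0.0577; the block gave 0.0147). Apcdd1 had 6 probe sets. In BALB/cJ against C57BL/6ByJ all 6 were higher in value and none was called, and in B6By.C.132.54 against BALB/cJ 5 were lower in value and 1 was called. The brighter 1418382_at measured -0.31 there (limma adjusted p = 0.624). The suffix of 1449070_x_at marks probes that can match further transcripts. Its call held in 12 of 19 alternative fits. Leaving out BALB/cJ replicate 1, 2 or 3 ended it (limma adjusted p = 0.0984, 0.0888 and 0.0782). The transporter list gained a call with the block: Slc16a1, the monocarboxylate transporter of barrier endothelium, on 1415802_at was 0.47 below BALB/cJ in B6By.C.132.54 (difference -0.47; limma adjusted p = 0.278, and 0.027 with the block).

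Markers of cells that lie in or beside vessels were read in the same way. None of the 10 probe sets of blood cell genes and none of the 19 of meninges and fibroblasts was called in any comparison (limma), with at most 1 at an unadjusted p under 0.05. The blood cell probe sets covered 8 of the 11 listed genes, and 8 of the 10 probe sets were dimmer than the array's median. Such dim values may not be above background. The list's mean log2 level was 3.19 to 3.20 in C57BL/6ByJ, 3.22 to 3.26 in BALB/cJ and 3.14 to 3.24 in B6By.C.132.54. In the choroid plexus list 1 of 15 probe sets, that of Sostdc1, was called higher in BALB/cJ than in both other strains. That is 6.67% of the list, against 1.43% of all probe sets for C57BL/6ByJ and 1.28% for B6By.C.132.54. Sostdc1 averaged 4.28 over the 9 arrays, near the median of 3.97 over all probe sets. The list's median difference of BALB/cJ from C57BL/6ByJ was -0.14. The 2 named probe sets of the transthyretin gene Ttr, the defining marker, measured -0.15 and -0.11 there and were not called (limma adjusted p = 0.793 and 0.958). In the neuron list the 1 called probe set of 20 (5%, against the same backgrounds) was that of Slc17a7, lower in BALB/cJ than in both other strains. None of the 23 oligodendrocyte probe sets was called without the replicate block, and 1, of Mal, was lower in BALB/cJ than in C57BL/6ByJ with it (limma adjusted p = 0.0349 with the block and 0.201 without).

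The genes whose levels ran most closely with a member over the 9 arrays were sought among 19409 single-gene probe sets at or above the median level. For Cldn5 they were Jakmip1 (Pearson r = 0.984), Brd8 (0.973) and Hectd4 (0.973). For Rgs5 1417466_at they were Tctex1d2 (0.958), Nell1 (0.954) and 1700052K11Rik (0.952). The closest to Slc2a1 1434773_a_at was Cpe (0.992), to Tek Ecpas (0.985), to Flt1 1451756_at Elovl1 (0.984), and to Ocln 1448873_at Nfkbia (0.969). The closest to Pdgfrb 1436970_a_at was Laptm5 (0.956), to Cdh5 1433956_at Nedd4 (0.931) and to Pecam1 Letmd1 (0.907). No member was the closest gene of another member. With 9 arrays and so many candidates, high values can arise for any gene; these are a description.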

How the data were processed

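The deposited values are linear intensities, 1 for each probe set on each array. GCOS and RMA stand in the submitters' processing notes with no versions; background treatment, scaling and genome build are not given in the sources used here. Detection calls were not used here. The log2 of each deposited value was used, without a pseudocount or further normalization. Control probe sets (64) were left out. Genes were named by the platform annotation, with symbols brought up to date from RefSeq (GRCm38.p6) by Entrez identifier; 34945 probe sets had 1 gene, 932 several and 9160 none. Promoter sequences are from RefSeq, same build.

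All 9 arrays entered a fit with a mean for each strain (limma 3.58.1, R 4.3.3; lmFit, eBayes; two-sided, Benjamini-Hochberg over 45037 probe sets, threshold 0.05). It was tested on simulated data. Same-numbered arrays of different strains deviated together (9 of 9 correlations over 0.1, from 0.147 to 0.542). These were 0.519 to 0.542 for number 1, but 0.147 to 0.180 for number 2 and 0.205 to 0.266 for number 3. The 18 other pairs ran from -0.458 to 0.153, with 3 of them over 0.1. From these values the numbers were taken as pairs. The labels give the numbers and 3 batches without linking them. The number of arrays limits the precision. Named are all probe sets of the members, list genes called in any comparison or among the 2 brightest probe sets of their list, and the genes most correlated with a member; Slc16a1, Mal and the replicate 1 comparison were added after their values were seen. The members and lists were chosen with earlier results of these data known.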

Additional observations from a re-analysis of the deposited data

How the results depend on the processing

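The counts of called member probe sets (limma, adjusted p under 0.05) were 1, 0 and 1 for BALB/cJ against C57BL/6ByJ, B6By.C.132.54 against C57BL/6ByJ and B6By.C.132.54 against BALB/cJ. With the replicate block, which takes the arrays as pairs by number, they were 1, 0 and 1 again, and the block changed no other member call. They were the same with quantile normalization, median centring, the dim probe sets left out, a trended robust prior or array weights. With only the 6 arrays compared both calls were lost, giving 0 and 0. With 1 array or 1 replicate number left out, the counts ran from 0 to 1, 0 to 0 and 0 to 1. The replicate 1 comparison gave 1 under every setting tried for it: quantile normalization, median centring and without dim probe sets. Over all probe sets, 644 calls between BALB/cJ and C57BL/6ByJ became 410 without C57BL/6ByJ replicate 2, and 219 to 309 without a replicate number; 575 between B6By.C.132.54 and BALB/cJ became 195 to 276. Other settings raised the 644, to 953 with the block and 706 without B6By.C.132.54 replicate 3. Of the 60 member differences, the sign of 26 that were not called changed under at least 1 of 19 settings, the largest of them 0.18. No called difference changed sign and no call was gained. Some settings, such as the block or leaving out an array of the strain not compared, cannot change a difference. The fits that lost these calls held fewer arrays, and the cause of the loss was not tested.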
